A study of Mus musculus with 7 samples.

Results

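The genes described here encode proteins of the respiratory chain and of ATP synthase in the DNA of the mitochondrion itself. They were chosen by name, 10 genes in all: mt-Nd1, mt-Nd2, mt-Nd3, mt-Nd4 and mt-Nd5 of complex I, mt-Cytb of complex III, mt-Co1, mt-Co2 and mt-Co3 of complex IV, and mt-Atp6 of ATP synthase. Of these, 8 have a row in the count table of 20859 genes. mt-Nd4 and mt-Co3 are not analysed here. The mitochondrial genome is transcribed as long precursor RNAs that are cut at the transfer RNAs between the genes, and the products are messenger RNAs with short poly(A) tails and 2 ribosomal RNAs, mt-Rnr1 and mt-Rnr2. The proteins form the cores of complexes whose other subunits come from nuclear genes, and neurons depend on these complexes for most of their ATP. Pieces of mitochondrial DNA have also been copied into nuclear chromosomes, where they are annotated as pseudogenes.

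The libraries were bulk mcSCRB-seq of cortex and hippocampus, an assay that tags the 3′ ends of polyadenylated transcripts with a barcode per well. The groups were wild-type mice given PBS (WT PBS), FAD mice given IgG (FAD IgG) and FAD mice of the CD38 treatment (FAD CD38). FAD stands for a familial Alzheimer's disease genotype, and CD38 is an NAD-degrading enzyme on the cell surface. The sources used here do not give the transgenes and their promoters, the age and sex of the mice, or the dose and time of treatment. In cortex there were 9 WT PBS, 7 FAD IgG and 7 FAD CD38 mice, and in hippocampus 8, 7 and 7, with both regions taken from the same animals. FAD and WT mice differ in genotype and in injection together, so those effects cannot be told apart. The 2 wells of mouse 2618, which the well name calls IgG and the description CD38, entered no main comparison of treatments. They were used for hippocampus against cortex and in counts over all wells. Alternative fits took this mouse as IgG or as CD38.

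The 47 wells of 24 mice were sequenced in 7 library pools, with 1270918 to 5101368 counts per well. Replicate wells differed by more than counting noise (lowest chi-square per degree of freedom 2.74). Cd38, the target of the treatment, had medians of 1.91, 3.93 and 3.75 CPM (counts scaled to a fixed library total) in cortex of WT PBS, FAD IgG and FAD CD38 mice, and passed no test between groups. In 7 wells mt-Rnr1 and mt-Rnr2 took more than 8% of the counts, and these wells stand apart in several results below. They were the hippocampus of WT PBS mouse 2756 (17.2%), of FAD IgG mice 2770 (12.8%) and 2789 (9.18%) and of FAD CD38 mouse 2632 (8.23%), and the cortex of FAD IgG mice 2771 (12.4%) and 2770 (10.6%) and of FAD CD38 mouse 2792 (8.99%). The limit of 8% was chosen after the values were seen.

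On chromosome M of GRCm38 (GENCODE M21), mt-Nd1 lies at bases 2751 to 3707, mt-Nd2 at 3914 to 4951, mt-Co1 at 5328 to 6872, mt-Co2 at 7013 to 7696, mt-Atp6 at 7927 to 8607, mt-Nd3 at 9459 to 9806, mt-Nd5 at 11742 to 13565 and mt-Cytb at 14145 to 15288. All 8 lie on the plus strand and have no introns. mt-Rnr1 (70 to 1024) and mt-Rnr2 (1094 to 2675) lie before them on the same strand.

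For at least 4 of the 8 genes the table lists a second row of nearly the same sequence. Only the chromosome 1 copies named here were aligned, and other copies were not looked for. A block of chromosome 1 (GRCm38, GENCODE M21, minus strand, from base 24611535 to base 24616197) holds 6 unprocessed pseudogenes copied from neighbouring mitochondrial genes. Gm10925 equals mt-Atp6 over 678 bases and Gm28661 equals mt-Co2 over 681 bases, with no mismatch. Gm28438 equals mt-Nd3 over 345 bases but for the substitution T3C, and Gm29216 equals the last 492 bases of mt-Co1 but for 6 substitutions at its start, T1056A, C1057T, A1059G, A1060G, C1062A and A1066T. Positions count from the first base of the mitochondrial transcript, and the mitochondrial base stands first. The windows below are from the GENCODE M21 transcripts. For mt-Nd3 and mt-Co1 they show the bases that differ, in capitals, and for mt-Co2 and mt-Atp6 the 3′ end of the aligned stretch.
mt-Nd3, bases 1 to 60: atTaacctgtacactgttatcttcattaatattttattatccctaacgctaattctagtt
Gm28438, bases 1 to 60: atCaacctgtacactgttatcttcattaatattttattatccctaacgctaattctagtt
mt-Co1, bases 1054 to 1113: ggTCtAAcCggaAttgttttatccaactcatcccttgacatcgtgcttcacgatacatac
Gm29216, bases 1 to 60: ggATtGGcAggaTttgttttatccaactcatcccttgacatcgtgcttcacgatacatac
mt-Co2, bases 622 to 681: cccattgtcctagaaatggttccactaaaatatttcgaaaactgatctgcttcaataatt
Gm28661, bases 622 to 681: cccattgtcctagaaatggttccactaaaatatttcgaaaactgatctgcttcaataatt
mt-Atp6, bases 619 to 678: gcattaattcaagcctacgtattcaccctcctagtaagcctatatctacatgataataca
Gm10925, bases 619 to 678: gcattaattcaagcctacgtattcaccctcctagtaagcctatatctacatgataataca
The first pair differs at 1 base and the second at 6, all near the start of the copy. At the 3′ ends, where this assay reads, none of the 4 pairs differs in its last aligned bases. Bases 286 to 345 of mt-Nd3 and 1486 to 1545 of mt-Co1 equal the copies, as do the windows shown for mt-Co2 and mt-Atp6. A read inside such a stretch cannot be assigned by its sequence. The sources used here name no build, annotation or rule for reads that fit several places, and the levels of these 4 genes are therefore uncertain.

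Most counts of these pairs stood under the nuclear copy. mt-Atp6 had 18544 counts over all wells and Gm10925 had 2411120, so the mitochondrial gene held 0.763% of the pair. mt-Co2 held 4.95% of its pair, mt-Nd3 16.3% and mt-Co1 39.3%. Gm28437, which equals mt-Co3 over 783 bases, had 2231564 counts, and Gm28439, which equals the first 876 bases of mt-Nd4, had 1166. The split followed the library pool for the pairs without mismatch. mt-Co2 held 1.82% to 2.58% of its pair in the 6 wells of pool 9, and 4.41% to 6.33% in every well of the other pools. mt-Atp6 held 0.325% to 0.422% in pool 10 and 0.949% to 1.18% in pool 8, ranges that do not overlap. For mt-Co1 the split differed by region in its median, 45.6% in cortex and 31.6% in hippocampus. The ranges overlapped, at 35.95% to 58.51% in cortex and 26.9% to 62.79% in hippocampus.

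**Figure D1:**
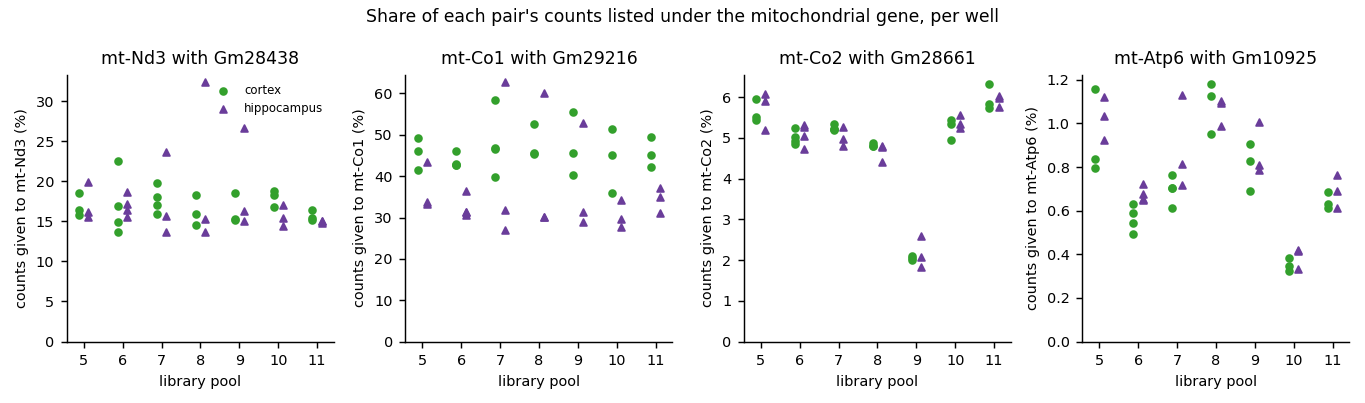
Share of each pair's counts that the table lists under the mitochondrial gene, in percent (vertical axis), by library pool (horizontal axis), for cortex (circles) and hippocampus (triangles), 1 point per well. The shares of mt-Co2 in pool 9 lie between 1.82% and 2.58%, below every other pool, and those of mt-Co1 have a lower median in hippocampus (31.6%) than in cortex (45.6%).

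Together the 8 genes took a smaller share of the counts in FAD than in WT PBS mice. In cortex the share was 5.37% ± 0.65 (SD, n = 9) in WT PBS, 4.24% ± 0.561 (SD, n = 7) in FAD IgG and 4.31% ± 0.337 (SD, n = 7) in FAD CD38. The 9 WT PBS cortices ran from 4.25% to 6.20%, the 7 FAD IgG cortices from 3.18% to 4.93% and the 7 FAD CD38 cortices from 3.82% to 4.88%, so the groups overlapped. Within pools, FAD IgG lay below WT PBS in 6 of 6 pools and FAD CD38 in 7 of 7. In hippocampus the share was 4.25% ± 0.761 (SD, n = 8) in WT PBS, 3.59% ± 0.552 (SD, n = 7) in FAD IgG and 3.29% ± 1.13 (SD, n = 7) in FAD CD38. Within pools, FAD IgG lay below WT PBS in 6 of 6 pools and FAD CD38 in 6 of 7. The lowest hippocampal shares were 0.768% in FAD CD38 mouse 2632 and 2.59% in WT PBS mouse 2756, both wells of high rRNA share. Without the wells above 8% rRNA the hippocampal means were 4.49% in WT PBS (n = 7), 3.78% in FAD IgG (n = 5) and 3.71% in FAD CD38 (n = 6), and the cortical means were 5.37%, 4.43% and 4.22%. These shares are descriptions, and the tests were made gene by gene across all genes. In bulk tissue, fewer cells of a type and less RNA per cell cannot be told apart.

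In cortex of FAD IgG mice all 8 genes were estimated below WT PBS, with a median log2 difference of -0.44, and none passed at an adjusted p of 0.05 (edgeR's quasi-likelihood test, Benjamini-Hochberg over 12968 genes). The background of that comparison was 3.87% of genes called, 0.532% lower and 3.34% higher, and the median over all genes was 0.01. At an unadjusted p of 0.05, 6 of the 8 passed, beside 1953 of the 12968 genes. DESeq2 called 3 of the 8 after adjustment (mt-Nd2, mt-Co2 and mt-Atp6), beside 609 of the 12968. In cortex of FAD CD38 mice all 8 were again below WT PBS, with a median of -0.35, and 1 was called, mt-Atp6. The background was 4.53% of genes called, 1.23% lower and 3.3% higher, and 5 of the 8 passed at an unadjusted p of 0.05, beside 2338 of the 12968 genes. DESeq2 called the same 3 genes as in FAD IgG, beside 771 of the 12968. The 2 comparisons share the WT PBS mice.

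Of mt-Nd1, mt-Nd2, mt-Nd3 and mt-Nd5, the complex I genes analysed here, mt-Nd1, a membrane subunit at the quinone site, was the most abundant. Its lowest, median and highest levels in cortex were 15942, 20382 and 23208 CPM in WT PBS, 11982, 16340 and 20890 in FAD IgG and 14784, 17200 and 17613 in FAD CD38. All 7 FAD CD38 cortices lay below the WT PBS median, and the groups overlapped. The log2 difference from WT PBS was -0.34 ± 0.14 (SE, adjusted p = 0.242) in FAD IgG and -0.33 ± 0.14 (SE, adjusted p = 0.193) in FAD CD38.

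mt-Nd2 is a proton-pumping subunit of the complex I membrane arm. Its lowest, median and highest cortical levels were 4285, 5297 and 7360 CPM in WT PBS, 2966, 3679 and 4885 in FAD IgG and 3166, 4201 and 6065 in FAD CD38. Of the 7 FAD IgG cortices 5 lay below every WT PBS cortex, and the other two lay inside the WT PBS range. The differences were -0.53 ± 0.17 (SE, adjusted p = 0.101) and -0.48 ± 0.16 (SE, adjusted p = 0.0972).

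mt-Nd3, a small subunit beside the quinone site, ran through 172, 285 and 364 CPM (lowest, median, highest) in WT PBS cortex, 110.0, 203 and 243 in FAD IgG and 190.1, 223 and 315 in FAD CD38. The differences were -0.49 ± 0.17 (SE, adjusted p = 0.125) and -0.28 ± 0.16 (SE, adjusted p = 0.372). mt-Nd5, the proton-pumping subunit at the far end of the membrane arm, ran through 1054, 1569 and 1921 CPM in WT PBS, 989, 1083 and 1649 in FAD IgG and 1033, 1198 and 1740 in FAD CD38. Its differences were -0.27 ± 0.17 (SE, adjusted p = 0.483) and -0.33 ± 0.16 (SE, adjusted p = 0.278). The groups overlapped for both genes, and the highest mt-Nd5 levels of the FAD groups came from mice 2771 and 2792, whose cortices had a high rRNA share. Without the wells above 8% rRNA the mt-Nd5 difference in FAD IgG was -0.48 ± 0.16 (SE, adjusted p = 0.148).

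mt-Cytb encodes cytochrome b, the subunit of complex III in which quinol is oxidised. Its lowest, median and highest cortical levels were 15836, 22743 and 27042 CPM in WT PBS, 11500, 17438 and 21757 in FAD IgG and 14668, 17502 and 20408 in FAD CD38. All 7 FAD IgG and all 7 FAD CD38 cortices lay below the WT PBS median, and the groups overlapped. The differences were -0.41 ± 0.16 (SE, adjusted p = 0.175) and -0.38 ± 0.15 (SE, adjusted p = 0.165).

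In complex IV, mt-Co1 encodes the subunit that holds the oxygen-reducing centre. Its cortical levels were 2244, 3485 and 3973 CPM (lowest, median, highest) in WT PBS, 1942, 2611 and 4838 in FAD IgG and 2127, 2697 and 3886 in FAD CD38. The highest of all 23 cortices was FAD IgG mouse 2771, with an rRNA share of 12.4%. The differences were -0.20 ± 0.20 (SE, adjusted p = 0.701) and -0.29 ± 0.19 (SE, adjusted p = 0.445). The FAD IgG difference was -0.50 ± 0.18 (SE, adjusted p = 0.209) without the wells above 8% rRNA and -0.32 ± 0.18 (SE, adjusted p = 0.439) summed with Gm29216.

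mt-Co2 encodes the subunit that takes electrons from cytochrome c. Its cortical levels were 284, 626 and 933 CPM in WT PBS, 144, 535 and 583 in FAD IgG and 198, 432 and 750.1 in FAD CD38, and the lowest well of each group came from pool 9. The differences, with the pool in the model, were -0.48 ± 0.15 (SE, adjusted p = 0.08) and -0.47 ± 0.14 (SE, adjusted p = 0.0612). Summed with Gm28661 they were -0.42 ± 0.17 (SE, adjusted p = 0.203) and -0.41 ± 0.16 (SE, adjusted p = 0.149).

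mt-Atp6, a subunit of the proton channel of ATP synthase, was the single gene called. Its lowest, median and highest cortical levels were 58.6, 161 and 272 CPM in WT PBS, 51.1, 83.1 and 183 in FAD IgG and 56.6, 103 and 152 in FAD CD38. The groups overlapped, but within pools FAD CD38 lay below WT PBS in 7 of 7 and FAD IgG in 6 of 6. The fall in FAD CD38 was -0.67 ± 0.18 (SE, adjusted p = 0.0346), and the difference in FAD IgG was -0.64 ± 0.19 (SE, adjusted p = 0.0668). Summed with Gm10925, which had most of the pair's counts, the FAD CD38 difference was -0.43 ± 0.17 (SE, adjusted p = 0.176) and no gene was called. The call was also lost without pool 5, 6, 8 or 11 and with the pool left out of the model.

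**Figure D2:**
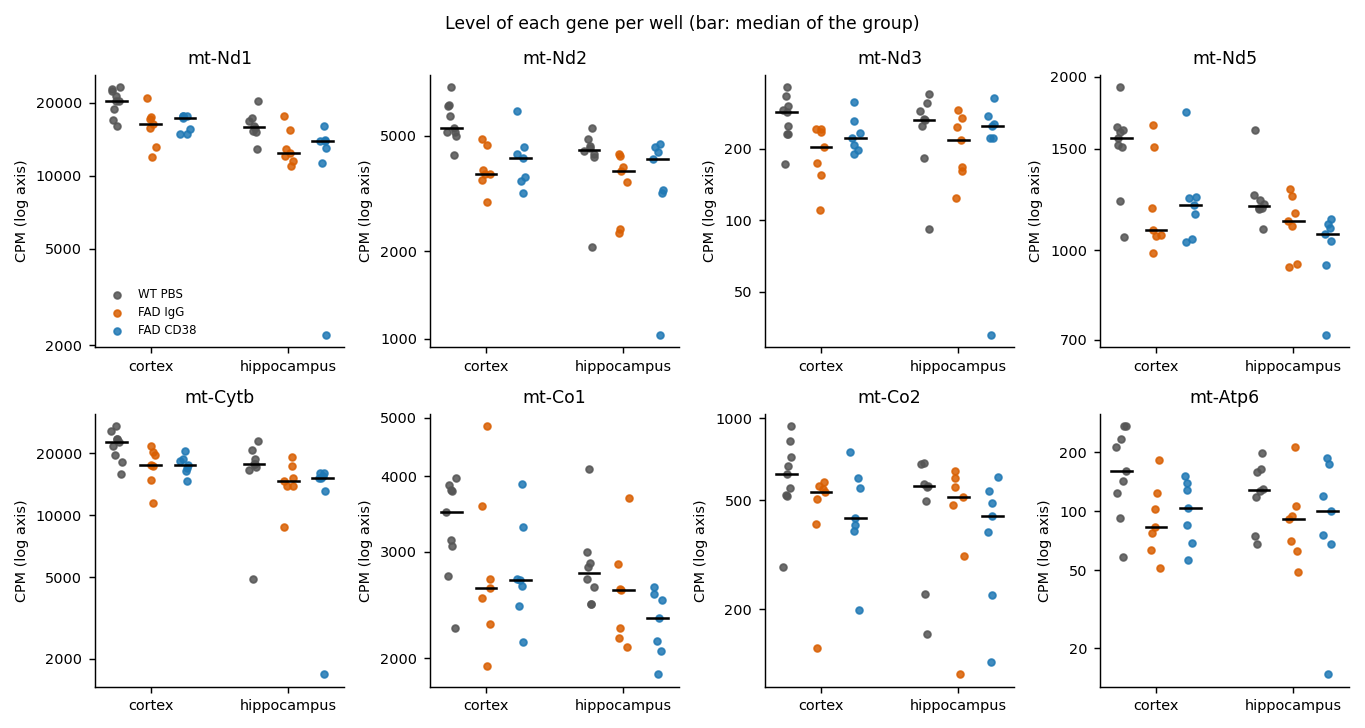
Level of each of the 8 genes in CPM (vertical log axis) for every well, by region (horizontal axis) and group (colour), with the group's median as a bar. In cortex the medians of FAD IgG and FAD CD38 lie below that of WT PBS for all 8 genes, with overlapping points, and in hippocampus FAD CD38 mouse 2632 is the lowest point for mt-Nd1 (2199 CPM) and mt-Cytb (1683 CPM).

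In hippocampus the 8 genes were likewise estimated below WT PBS in both FAD groups, though mt-Nd3 stood at 0.09 in FAD CD38 without pool 7, and none passed in edgeR with the pool as the only covariate, in DESeq2 or with voom and sample quality weights. The median log2 difference was -0.31 in FAD IgG, with a lowest adjusted p of 0.581, and -0.29 in FAD CD38, with a lowest adjusted p of 0.266. The background was 4.89% of 12728 genes called in FAD IgG (0.416% lower, 4.48% higher) and 5.31% in FAD CD38 (0.754% lower, 4.56% higher), and 0 and 1 of the 8 passed at an unadjusted p of 0.05. mt-Nd1, with 12856, 15836 and 20389 CPM (lowest, median, highest) in WT PBS, 10918, 12393 and 17549 in FAD IgG and 2199, 13883 and 15941 in FAD CD38, had the largest difference in FAD CD38, -0.49 ± 0.23 (SE, adjusted p = 0.266). mt-Cytb ran through 4913, 17726 and 22881 CPM in WT PBS, 8800, 14727 and 19162 in FAD IgG and 1683, 15094 and 15983 in FAD CD38. Its differences were -0.32 ± 0.33 (SE, adjusted p = 0.714) and -0.42 ± 0.32 (SE, adjusted p = 0.528). Without the wells above 8% rRNA, a setting chosen after seeing the data, the FAD CD38 differences were -0.31 ± 0.09 for mt-Cytb (SE, adjusted p = 0.0254) and -0.30 ± 0.09 for mt-Nd1 (SE, adjusted p = 0.0309), and both were called. Calls rose over all genes too, to 1999 of 12880 (1006 lower) from 676 of 12728 (96 lower) with all wells. The standard error of mt-Cytb went from 0.32 with all wells to 0.09 without the wells above 8% rRNA.

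mt-Atp6 ran through 67.9, 129 and 199 CPM in WT PBS, 49.1, 91.9 and 212 in FAD IgG and 14.7, 99.9 and 187 in FAD CD38. mt-Nd5 ran through 1090, 1194 and 1615 CPM, 935, 1125 and 1279 and 713, 1066 and 1132, and 4 of 7 FAD CD38 hippocampi lay below every WT PBS one. mt-Co1 ran through 2457, 2768 and 4113 CPM, 2085, 2592 and 3686 and 1882, 2333 and 2626, also with 4 of 7 FAD CD38 hippocampi below every WT PBS one. The differences were -0.26 ± 0.13 (SE, adjusted p = 0.315) for mt-Nd5 and -0.29 ± 0.16 (SE, adjusted p = 0.37) for mt-Co1. With the rRNA share as a covariate both were called, at -0.26 ± 0.09 (SE, adjusted p = 0.0474) and -0.29 ± 0.09 (SE, adjusted p = 0.0333). Calls rose over all genes in that setting, to 1714 of 12728 (577 lower) from 676 (96 lower) without the covariate.

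The CD38 treatment was compared with IgG within FAD mice. None of the 8 genes was called in either region, the background was 0% (0 of 12968 genes in cortex and 0 of 12728 in hippocampus, by edgeR), and 0 of the 8 passed at an unadjusted p of 0.05, by DESeq2 after adjustment, or with voom and sample quality weights. In cortex the 8 estimates ran from -0.09 (mt-Co1) to 0.21 (mt-Nd3, 0.21 ± 0.17), with standard errors of 0.15 to 0.20. In hippocampus they ran from -0.18 (mt-Nd1, -0.18 ± 0.24) to 0.16 (mt-Nd3), with standard errors of 0.13 to 0.34. The summed share of the 8 genes was lower in FAD CD38 than in FAD IgG in 3 of 6 pools in cortex and in 4 of 6 in hippocampus.

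**Figure D3:**
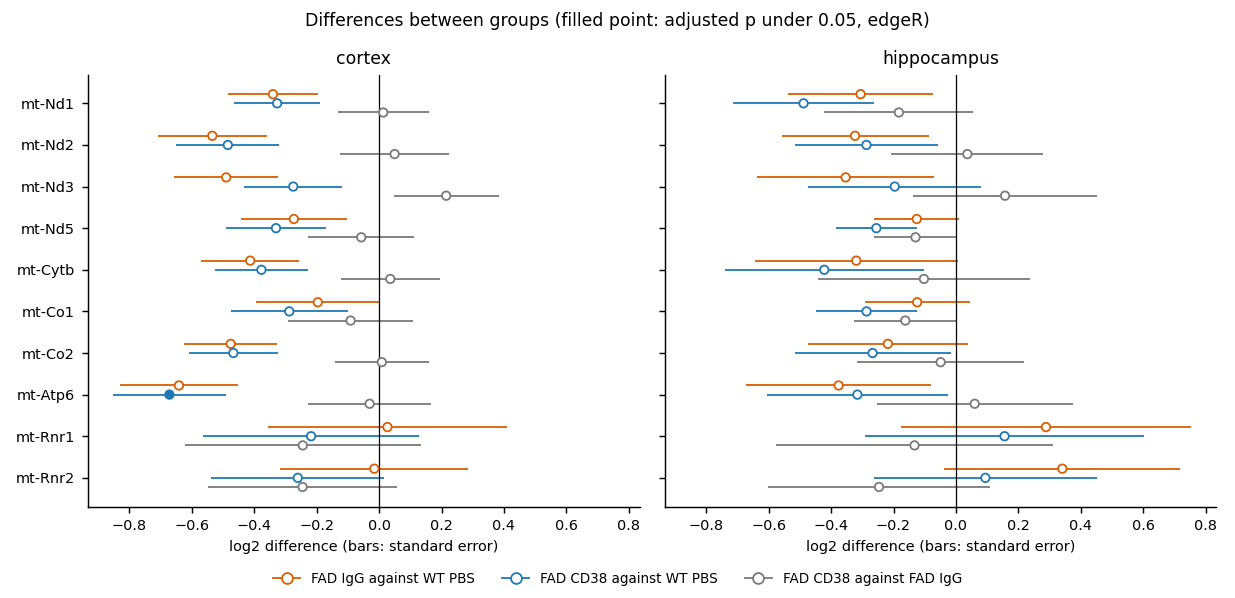
Log2 difference of each gene (horizontal axis, with standard error) for FAD IgG against WT PBS, FAD CD38 against WT PBS and FAD CD38 against FAD IgG, in cortex (left) and hippocampus (right). A filled point marks an adjusted p under 0.05, which mt-Atp6 reached in cortex of FAD CD38 against WT PBS (-0.67). The 8 protein genes lie left of 0 against WT PBS in both regions, and the error bars of mt-Rnr1 and mt-Rnr2 cross 0.

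For none of the 8 genes was a difference in response between regions called by the test of that difference (limma's voom, wells of 1 mouse correlated, 13447 genes). The background was 0.164% of genes called for FAD IgG against WT PBS (0.0149% lower, 0.149% higher), 0.134% for FAD CD38 against WT PBS (0.0372% lower, 0.0967% higher) and 0% for FAD CD38 against FAD IgG, and 0 of the 8 passed at an unadjusted p of 0.05 in any of these. The lowest adjusted p of the 8 was 0.803, 0.762 and 1.

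In most mice the 8 genes together took less of the counts in hippocampus than in cortex. The summed share was lower in hippocampus in 22 of 23 mice with both regions, by a median of -0.851 percentage points. In the fit blocked by mouse, 5 of the 8 genes fell (background 46.7% of 12434 genes called, 22.7% lower and 24% higher): mt-Cytb at -0.46 ± 0.12 (SE, adjusted p = 0.00113), mt-Nd1 at -0.40 ± 0.10 (SE, adjusted p = 0.00124), mt-Nd5 at -0.22 ± 0.07 (SE, adjusted p = 0.00627), mt-Nd2 at -0.28 ± 0.10 (SE, adjusted p = 0.0204) and mt-Co2 at -0.25 ± 0.10 (SE, adjusted p = 0.0388). mt-Cytb was lower in 22 of 23 mice, mt-Nd1 in 21 and mt-Nd5 in 18, but mt-Nd2 in 14, mt-Co2 in 12 and mt-Nd3 in 8, with a median difference of 11.8 CPM for mt-Nd3. Without the mice that had a well above 8% rRNA, 3 stayed called, mt-Cytb (-0.30), mt-Nd1 (-0.28) and mt-Nd5, while mt-Nd2 was at -0.06 (adjusted p = 0.516), mt-Co2 at -0.06 (adjusted p = 0.51) and mt-Nd3 at 0.14 (adjusted p = 0.12). In that setting 5999 of 12722 genes were called, 2923 of them lower. With all mice, mt-Co1 was at -0.19 ± 0.08 (SE, adjusted p = 0.0513), mt-Atp6 at -0.18 ± 0.11 (SE, adjusted p = 0.183) and mt-Nd3 at -0.07 ± 0.13 (SE, adjusted p = 0.707).

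The pair of mt-Co1 and its copy moved apart between regions. Gm29216 was higher in hippocampus, at 0.43 ± 0.10 (SE, adjusted p = 0.000251), and lower there in only 5 of 23 mice, while mt-Co1 was lower in 15 of 23. Summed, the pair stood at 0.20 ± 0.09 (SE, adjusted p = 0.0573), so the direction for mt-Co1 depends on how the reads of the pair are counted. Gm10925, at -0.36 ± 0.12 (SE, adjusted p = 0.0156), and Gm28661, at -0.26 ± 0.10 (SE, adjusted p = 0.0297), had the same sign as mt-Atp6 and mt-Co2. They were lower in hippocampus in 17 and 15 of 23 mice. Gm28437, the copy of mt-Co3, was lower there in 12 of 23 mice and Gm28439, the copy of mt-Nd4, in 10. Gm28438, the copy of mt-Nd3, was lower in 8 of 23, with a median difference of 223 CPM.

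**Figure D4:**
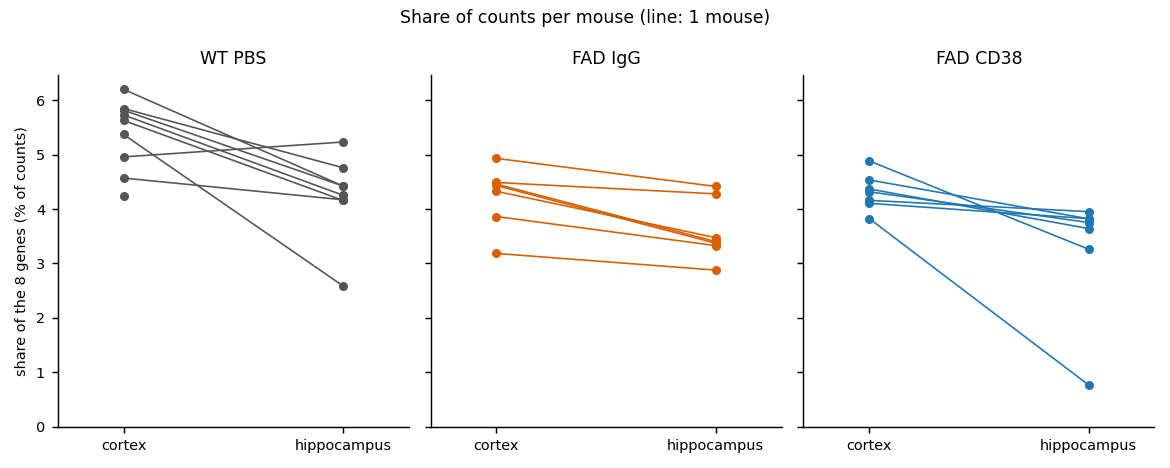
Summed share of the 8 genes in percent of counts (vertical axis from 0) in cortex and hippocampus, with a line per mouse, by group. The lines fall in all but 1 mouse, and the lowest point is the hippocampus of FAD CD38 mouse 2632 (0.768%). Mouse 2618 is not drawn, and 1 WT PBS mouse has a cortex only.

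Listed counts differed widely between genes. Per kilobase of annotated transcript, the cortical medians were 18301 CPM for mt-Nd1, 16390 for mt-Cytb, 4398 for mt-Nd2, 1773 for mt-Co1, 803 for mt-Co2, 674 for mt-Nd5, 667 for mt-Nd3 and 182 for mt-Atp6. The ranges of mt-Nd1 and mt-Cytb overlapped almost fully, mt-Nd2 lay below both in every cortex, and each later gene in this order overlapped the one before it. The assay reads 3′ ends, so counts need not scale with length, and the low places of mt-Atp6 and mt-Co2 are those of genes with nearly all of the pair's counts under the copy. mt-Nd1 and mt-Cytb made up 37.6% and 41.2% of the counts of the 8 genes, so the summed share mostly follows them. Outside the 8, mt-Nd4l of complex I had a cortical median of 46002 CPM per kilobase.

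No difference between groups passed for the ribosomal RNAs of the same genome. In cortex mt-Rnr1 and mt-Rnr2 took 5.89% ± 1.32 (SD, n = 9) of counts in WT PBS, 6.09% ± 3.79 (SD, n = 7) in FAD IgG and 5.19% ± 2.02 (SD, n = 7) in FAD CD38. In hippocampus they took 6.1% ± 4.55 (SD, n = 8), 6.36% ± 3.43 (SD, n = 7) and 5.41% ± 1.6 (SD, n = 7). The smallest of 6 p-values (exact permutation test, two-sided) was 0.421, for FAD CD38 against WT PBS in cortex, and all 6 adjusted p were 0.958. Within pools the sign was mixed, with FAD IgG below WT PBS in 3 of 6 pools in each region, and FAD CD38 in 5 of 7 in cortex and 2 of 7 in hippocampus. The hippocampal medians were 4.72% in WT PBS and 5.38% in FAD CD38, the opposite order of the means, which include mouse 2756 at 17.2%.

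The messenger RNAs did not follow the rRNA share in 1 way. Over 23 cortices the log2 share of mt-Co1 rose with that of the rRNAs (Pearson's r = 0.89, Spearman's rho = 0.89, permutation p = 1e-05 for both, the smallest that 100000 resamples give, adjusted p = 8e-05 over 16 relations for r), and so did mt-Nd5 (r = 0.81, rho = 0.83, permutation p = 1e-05 and 2e-05, adjusted p = 8e-05 for r). Without the 2 wells farthest from the median rRNA share the r were 0.88 and 0.85, and after centring on the pool they were 0.88 and 0.81. Within WT PBS, FAD IgG and FAD CD38 the r of mt-Co1 was 0.86, 0.90 and 0.99. The other 6 genes did not pass by r in cortex, from mt-Cytb (r = -0.38, rho = -0.28) to mt-Nd2 (r = 0.38, rho = 0.44). Without the 2 farthest wells r was 0.70 for mt-Nd2 and 0.72 for mt-Nd3. By rho, mt-Nd3 passed too (0.48, permutation p = 0.0209, adjusted p = 0.0419).

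In hippocampus 4 of the 8 genes fell as the rRNA share rose. The share of all genes that do so was not computed, so the count cannot be called particular to them. For mt-Co2 r was -0.77 and rho -0.65 (permutation p = 0.00016 and 0.00157, adjusted p = 0.000853 for r), for mt-Nd2 -0.73 and -0.64 (permutation p = 0.00087 and 0.0015, adjusted p = 0.00348), for mt-Nd3 -0.64 and -0.52 (permutation p = 0.00546 and 0.0137, adjusted p = 0.0146) and for mt-Cytb -0.64 and -0.53 (permutation p = 0.00709 and 0.0119, adjusted p = 0.0162). Without the 2 wells farthest from the median the r were -0.60, -0.71, -0.55 and -0.53. mt-Co1 went the other way (r = 0.63, rho = 0.40, permutation p = 0.00246 and 0.065, adjusted p = 0.00787 for r), but r was 0.11 without those 2 wells, so that relation rests on them. By rho mt-Nd1 passed too (-0.60, permutation p = 0.00419, adjusted p = 0.0134), and mt-Co1 did not (adjusted p = 0.0945). After centring on the pool the same 4 genes passed and mt-Nd1 and mt-Atp6 passed with them, at r = -0.49 and -0.73, while mt-Co1 did not (adjusted p = 0.0744). Both measures are shares of the same counts. The shares of nuclear counts leave the rows of mitochondrial DNA out of the total but keep the nuclear copies in it. By them the same 4 genes passed with negative r in hippocampus (mt-Co2 -0.74, mt-Nd2 -0.66, mt-Nd3 -0.58, mt-Cytb -0.58). mt-Nd5 (0.54) and mt-Co1 (0.71) passed with positive r. The last 2 were at 0.00097 and 0.19 without the 2 farthest wells.

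**Figure D5:**
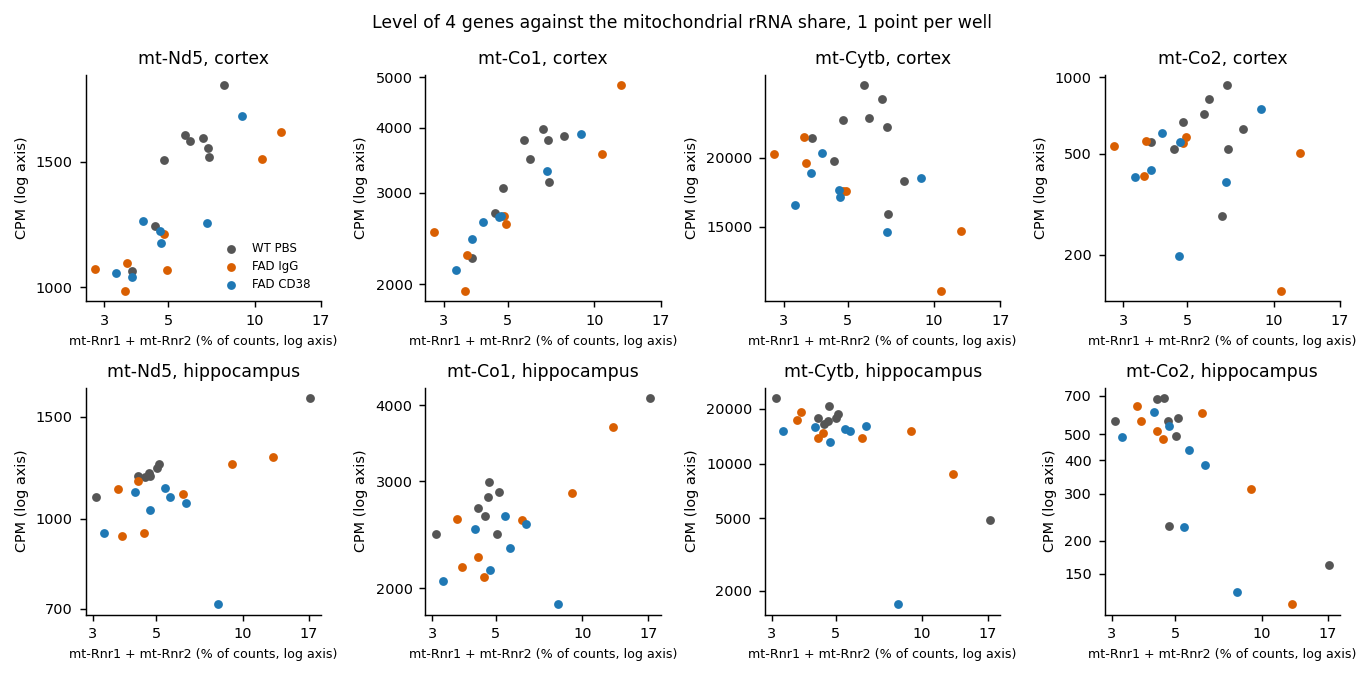
Level of mt-Nd5, mt-Co1, mt-Cytb and mt-Co2 in CPM (vertical log axis) against the summed share of mt-Rnr1 and mt-Rnr2 in percent (horizontal log axis), in cortex (top) and hippocampus (bottom), 1 point per well and colour by group. mt-Co1 and mt-Nd5 rise with the rRNA share in cortex (r = 0.89 and 0.81), and mt-Cytb and mt-Co2 fall with it in hippocampus (r = -0.64 and -0.77).

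Of the other features of the mitochondrial genome, mt-Nd4l and mt-Nd6 of complex I and mt-Atp8 of ATP synthase passed no test between groups. mt-Atp8, whose gene overlaps mt-Atp6, was nearest, at -0.49 ± 0.17 (SE, adjusted p = 0.139) in FAD IgG and -0.47 ± 0.17 (SE, adjusted p = 0.117) in FAD CD38 cortex. mt-Nd6, the gene on the opposite strand, was at -0.05 ± 0.32 (SE, adjusted p = 0.974) and -0.10 ± 0.29 (SE, adjusted p = 0.9). All 3 fell in hippocampus against cortex, mt-Nd4l at -0.34 ± 0.09 (SE, adjusted p = 0.00349), mt-Nd6 at -0.32 ± 0.10 (SE, adjusted p = 0.0079) and mt-Atp8 at -0.35 ± 0.11 (SE, adjusted p = 0.0125). The 13 transfer RNA genes listed took a mean of 0.0222% ± 0.00392 (SD, n = 9) of counts in WT PBS cortex, 0.0181% ± 0.00357 (SD, n = 7) in FAD IgG and 0.019% ± 0.00598 (SD, n = 7) in FAD CD38.

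Nuclear genes of the same complexes were set beside them. In cortex of FAD IgG mice 5 of 35 complex I subunits fell and none rose (0.532% of all genes fell), with a median of -0.33, among them Ndufb6 (-0.45 ± 0.10), Ndufc2 (-0.39 ± 0.10), Ndufc1 (-0.49 ± 0.12) and Ndufv2 (-0.43 ± 0.12, SE throughout). In FAD CD38 cortex, where 1.23% of all genes fell, 10 of 35 fell, and with them 2 of 11 complex IV subunits, Cox7b (-0.44 ± 0.12) and Ndufa4 (-0.46 ± 0.13), and 2 of 15 of complex V, Atp5k (-0.54 ± 0.14) and Atp5j2 (-0.46 ± 0.13). None of 9 complex III subunits passed. In hippocampus none of these subunits passed in either FAD group. The range among WT PBS wells was wider there, and its part in the lack of calls was not tested. The complex I subunits summed to 5230.5, 13177 and 14626 CPM (lowest, median, highest) in WT PBS hippocampus, and to 10263, 13387 and 15201 in WT PBS cortex. Of the factors that replicate and transcribe mitochondrial DNA (13 tested), process its RNA (16), translate it (10) or regulate biogenesis (9), none passed between groups in either region. Between regions, 4 of the 13 factors of replication and transcription rose in hippocampus, where 24% of all genes did: Twnk, the replicative helicase (0.45 ± 0.09), Top1mt, a topoisomerase (0.46 ± 0.10), Tefm, an elongation factor (0.28 ± 0.09), and Tfam, which packages the DNA (0.19 ± 0.07). Lrpprc, which stabilises mitochondrial messenger RNAs, was higher there by 0.37 ± 0.08, and Fastk, which is needed for mt-Nd6 RNA, was lower, at -0.34 ± 0.05. These are single genes of their list, beside 46.7% of all genes called between regions, and their part in the RNA levels was not tested.

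Cell type markers moved with the same groups. The summed level of 6 microglia markers was 130 to 200 CPM in WT PBS cortex, 511 to 779 in FAD IgG and 394 to 822 in FAD CD38, with 4 of 6 called higher in both FAD groups and none at 0 throughout a group. In hippocampus it was 110 to 187 CPM, 534 to 773 and 281 to 837. Of 5 astrocyte markers, Gfap and Aqp4 were called higher in both FAD groups of both regions, Gfap by 3.39 ± 0.18 in FAD IgG and 3.15 ± 0.17 in FAD CD38 cortex (SE). The astrocyte markers summed to 2101 to 4014 CPM in WT PBS cortex, 2829 to 5018 in FAD IgG and 2785 to 4545 in FAD CD38. The 6 neuron markers summed to 2577 to 4047 CPM, 2805 to 3761 and 2602 to 4573, and none was called. The 4 striatal markers summed to 164 to 392 CPM, 111 to 323 and 87.4 to 281, and none was called. No marker of oligodendrocytes, endothelium, choroid plexus or blood was called between groups. Markers also moved between regions. In hippocampus 3 of 3 blood genes fell (median -1.14), 3 of 3 striatal markers tested fell (median -1.98), Snap25 and Rbfox3 of the 6 neuron markers and Mbp and Mog of the 4 oligodendrocyte markers fell, and Ttr of the choroid plexus rose by 1.61 ± 0.64. The part of these cell types in the differences of the 8 genes was not tested.

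After centring on the pool, the median Pearson's r over the 28 pairs was 0.66 in 23 cortices and 0.88 in 22 hippocampi, and the lowest was 0.05 and -0.27. mt-Co1 and mt-Nd5 stood apart in hippocampus. Their r with each other was 0.89, but mt-Co1 had a negative r with 5 of the other genes, from -0.07 (mt-Cytb) to -0.27 (mt-Co2), and mt-Nd5 was at 0.03 with mt-Co2 and 0.11 with mt-Nd2. Of 12414 genes not encoded in mitochondrial DNA, those most like the mean of the 8 in cortex were Gm28661 (0.96), Gm13341 (0.93), Fmc1 (0.90), Gm28437 (0.89) and Gm43841 (0.88), and those least like it were App (-0.92), Syvn1 (-0.89) and Nup50 (-0.89). In hippocampus, over 12290 genes, they were Gm10925 (0.99), Gm28437 (0.99), Trappc2 (0.98), Nudt16l1 (0.98) and Mcts1 (0.97), and Etv3 (-0.97), Ddx17 (-0.95) and Mapk6 (-0.94). Gm28661, Gm28437 and Gm10925 are the nuclear copies of mt-Co2, mt-Co3 and mt-Atp6, without a mismatch over the aligned bases. Their reads cannot be told from mitochondrial reads by sequence, so their high r shows no likeness of a nuclear transcript. Gm13341 and Gm43841 were not aligned, so whether they too are copies was not tested. All r given here describe the wells, which share pools and, in hippocampus, include the low well of mouse 2632. The wells of WT PBS, FAD IgG and FAD CD38 mice entered each r without centring on the group. Each r, that of App included, therefore also holds the differences between groups, and likeness within a group was not tested.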

How the data were processed

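Bulk mcSCRB-seq libraries of cortex and hippocampus were analysed, 47 wells of 24 mice in 7 pools. The deposited values are raw whole-number counts per gene and well, as the values in the authors' table show. The authors' tools included bcl2fastq 2.17 and STAR 2.5.3a, per the submitters' processing notes. Use of molecular identifiers is not stated. The sample sheet the authors deposited gave the group of each well, and the mouse was the replicate. The labels do not say how mice were allotted to pools.

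Genes were kept with filterByExpr by group (minimum count 10, minimum total 15). Groups were compared per region in edgeR 4.0.16 (quasi-likelihood, robust, TMM) with the pool as a term, in R 4.3.3. Hippocampus was compared with cortex with the mouse as a block, and the difference between regions with limma 3.58.1. P-values were adjusted by Benjamini-Hochberg over all genes tested, at 0.05. DESeq2 1.42.0 was an alternative. CPM used total counts, and the rRNA shares were tested with scipy 1.17.1. Copies were aligned to GENCODE M21 transcripts (GRCm38), which may not be the authors' annotation. The filter was first set from the design matrix and was replaced by the filter by group after those results were seen; both are reported. Members and lists were chosen with earlier results of these data known. Named genes of other lists are up to 4 called members of smallest p, and genes alike are the first 5 and last 3 by pool-centred correlation with the mean of the 8.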

Additional observations from a re-analysis of the deposited data

Results flagged for a closer look

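Of 60 groups of 7 to 9 wells examined, 14 held a well separated from the others by most of the group's range. Chance gives about 1 in 20 for independent groups, but these were not independent. The 8 genes, their summed share and the rRNA share were read from the same wells. Most of the 14 came from the hippocampus of mice 2632 and 2756, so their number cannot be set against chance. FAD CD38 mouse 2632 was the lowest hippocampus of its group in mt-Nd1 (2199 CPM), mt-Nd2 (1029), mt-Nd3 (32.9) and mt-Cytb (1683) and in the summed share of the 8 genes (0.7681% of counts). WT PBS mouse 2756 was the lowest hippocampus of its group in mt-Nd2 (2075 CPM), mt-Cytb (4913) and the summed share (2.589%). The same well was the highest in mt-Nd5 (1615 CPM), mt-Co1 (4113) and the rRNA share (17.24%). FAD CD38 mouse 2792 was the highest cortex of its group in mt-Nd5 (1740 CPM), FAD IgG mouse 2770 the lowest cortex in mt-Co2 (144 CPM, a well of pool 9), and FAD IgG mouse 2588 the highest hippocampus in mt-Atp6 (212.3 CPM).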

How the results depend on the processing

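Over 1416 alternative values of single genes, 14 lost a call, 49 gained one, none of the called values changed sign and 96 values without a call changed direction. The counts of the 8 genes called moved as follows. For FAD IgG against WT PBS in cortex (0), 3 were called by DESeq2, with the rRNA share as a covariate and by voom with sample weights, 1 without a filter on low counts, 1 with the pool left out of the model, 4 with mouse 2618 taken as IgG and 1 with it taken as CD38. Over all genes the calls there were 502 of 12968 in the main fit, 609 by DESeq2, 1326 with the covariate and 453 by voom. They were 602 of 20852 without a filter and 517 with the pool left out. With mouse 2618 as IgG and as CD38 they were 587 and 513 of 13065. For FAD CD38 against WT PBS in cortex (1), 3 were called by DESeq2, by voom with weights, with only the 2 groups fitted, with mouse 2618 as CD38 and without the wells above 8% rRNA, 4 with the covariate, 2 without a filter, 2 with mouse 2618 as IgG, and 0 with the pool left out or with genes and copies summed. Over all genes the calls there were 587 of 12968 in the main fit, 771 by DESeq2, 789 by voom and 2260 with the covariate. They were 819 of 12572 with only the 2 groups and 653 of 13244 without the wells above 8%. With mouse 2618 as CD38 and as IgG they were 698 and 633 of 13065. They were 653 of 20852 without a filter, 580 with the pool left out and 587 of 12964 with copies summed. For FAD CD38 against WT PBS in hippocampus (0), 2 were called with the covariate (mt-Co1, mt-Nd5) and 2 without the wells above 8% (mt-Cytb, mt-Nd1). Among all genes 676 of 12728 were called in the main fit, 1714 with the covariate and 1999 of 12880 without those wells. For hippocampus against cortex (5), 3 were called with no replicate block and 3 without the mice above 8%. Among all genes 5808 of 12434 were called in the main fit, 4728 with no block and 5999 of 12722 without those mice. By DESeq2, with RLE factors, scaled to nuclear genes (copies included), with the covariate and with copies summed, 6 were called. mt-Co1 was the sixth in each of these but the last, where it was mt-Atp6. These settings called between 5644 (DESeq2) and 5971 (covariate) of all genes. Leaving out 1 pool at a time gave 0 to 2 calls and 0 to 3 calls for FAD IgG and FAD CD38 against WT PBS in cortex, and 4 to 6 for hippocampus against cortex. Among all genes it gave 368 to 671, 365 to 728 and 5253 to 5513 calls. The filter set from the design matrix gave 0, 0, 1, 0, 0 and 0 calls in the 6 group comparisons and 6 between regions. Of all genes it called 611 of 13662 for FAD CD38 against WT PBS in cortex and 6409 of 14399 between regions. The settings with copies summed, without wells above 8% and with that filter were chosen after seeing the data. The causes of these changes were not tested. The lowest group median among the 8 genes was 83.1 CPM (mt-Atp6, FAD IgG cortex).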
